A study of Homo sapiens with 5 samples.

Results

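The 10 genes described here make, desaturate, elongate or carry fatty acids: ACACA, FASN, SCD, FADS1, FADS2, FADS3, ELOVL1, ELOVL5, ELOVL6 and MFSD2A. They were taken by symbol from a table of 27933 gene symbols, and all 10 reached a mean of at least 1 FPKM (mapped fragments divided by transcript length and by the size of the library) and entered the test, as did 12196 genes in all. FADS1 and MFSD2A were chosen because they were lower in knockdown in these same libraries, so their difference between groups is given as a description, without a test. The other 8 genes were named for their function. The libraries came from HaCaT, an established line of immortalised human keratinocytes grown in serum-containing medium. Total RNA was sequenced from 2 control libraries and from 3 libraries labelled as AHNAK knockdown, while the series' design text speaks of a knockout. AHNAK encodes a very large scaffold protein, and the series title places it under oncostatin M receptor signalling in keratinocyte proliferation and differentiation. The labels name neither the interfering RNA nor separate cultures, so p-values rest on the variation among these 5 libraries alone, and that may be technical.

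Fatty acid synthesis starts with acetyl-CoA carboxylase (ACACA), which makes the malonyl-CoA that fatty acid synthase (FASN) joins into palmitate. Elongases of the endoplasmic reticulum (ELOVL) lengthen the chain, and desaturases (SCD and FADS) place double bonds in it. SCD makes oleate-type monounsaturated acids, whereas FADS2 and FADS1 act in turn on dietary polyunsaturated acids on the way to arachidonic and eicosapentaenoic acid. MFSD2A imports lysophosphatidylcholine that carries polyunsaturated chains, best known for docosahexaenoic acid at the blood-brain barrier. Keratinocytes use these products for membranes, lipid mediators and the ceramides of the skin barrier.

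FADS1, FADS3 and MFSD2A were the 3 of the 10 genes whose knockdown libraries all lay below both controls, as 15.8% of all tested genes did, and FADS1 and MFSD2A were chosen for that fall. Stretches near the RNA start of these 3 are shown for their sequence context. They were read from RefSeq promoters of GRCh38.p14, which matched 9 of the 10 genes (not FASN), and are written 5′ to 3′ on the gene's strand. Capitals mark a CCAAT box (CCAAT, or ATTGG on the other strand) or a cAMP response element (TGACGTCA, the same on both strands).
FADS1: cgatgcccgccTGACGTCAggaagtcgaat
FADS3: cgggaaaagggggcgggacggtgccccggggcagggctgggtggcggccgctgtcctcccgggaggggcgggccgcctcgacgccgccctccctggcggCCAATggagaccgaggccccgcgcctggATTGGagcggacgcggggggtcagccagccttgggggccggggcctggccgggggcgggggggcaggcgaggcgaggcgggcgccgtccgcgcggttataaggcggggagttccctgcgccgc
MFSD2A: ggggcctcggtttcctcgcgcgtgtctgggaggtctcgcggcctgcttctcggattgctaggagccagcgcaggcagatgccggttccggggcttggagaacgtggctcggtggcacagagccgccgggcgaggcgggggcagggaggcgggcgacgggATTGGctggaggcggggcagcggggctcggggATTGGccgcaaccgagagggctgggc

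The FADS1 stretch is chr11:61817047-61817076 on the minus strand, from 73 to 44 bases before the RefSeq start, and all 30 of its bases lie in an exon of other FADS1 transcripts in GENCODE release 29. The FADS3 stretch is chr11:61891546-61891795 on the minus strand, and the MFSD2A stretch is chr1:39954895-39955111 on the plus strand. FADS3 had CCAAT boxes whose left ends lay 151 and 123 bases before the start, 1 on each strand, and MFSD2A had them at 91 and 59 bases, both on the opposite strand. Of 35116 promoter windows of 250 bases, 32.0% held a CCAAT box and 1.65% the cAMP response element, on either strand. Motifs TCACNCCAC (a sterol response element), CACGTG (an E-box), the DR4 element (AGGTCA repeated after a spacer of 4 bases) and TATAAA were also searched on both strands, and 0.883%, 6.34%, 0.0142% and 10.7% of all windows held them. Of these, the E-box was found in ELOVL5, 211 bases before its start, and the windows of the other matched genes held none of the 4. The ELOVL5 window held a cAMP response element too. The GC box GGGCGG, in 42.6% of all windows, was found before FADS1 (2 matches) and FADS3 (4 matches) and not in the MFSD2A window. GC boxes were also found before ACACA, SCD, FADS2, ELOVL1 and ELOVL6, and CCAAT boxes before ACACA, SCD, ELOVL1 and ELOVL5, whose groups overlapped. These matches describe letters only.

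AHNAK was lower in every library labelled as knockdown, at 204.8 and 242.0 FPKM in controls against 113.9, 69.6 and 115.3 FPKM in knockdown. Values of single libraries are given here in the order of their replicate numbers. FPKM sums ranged from 374214.8 to 420540.9, and absolute depth is unknown. All 7 listed keratinocyte markers (KRT5, KRT14, TP63, KRT6A, KRT17, SFN and DSG3) reached 1 FPKM in every library. Their sum was 6245 to 7771 FPKM in controls and 4068 to 5764 FPKM in knockdown. Of 6 fibroblast markers 1 reached 1 FPKM in every library, and their sum was 3.30 to 5.00 FPKM in controls and 6.11 to 10.24 FPKM in knockdown. Of the 4 melanocyte and 5 immune markers none reached 1 FPKM in every library, with TYR at 0 throughout. Their sums were 1.92 to 2.07 FPKM (melanocyte) and 0.967 to 1.16 FPKM (immune) in controls and 1.39 to 2.05 FPKM and 1.04 to 1.504 FPKM in knockdown. Of the 4 endothelial markers CDH5 alone reached 1 FPKM in every library (sums of 2.08 to 2.98 FPKM and 2.06 to 2.98 FPKM), and all 4 adipocyte markers stayed under it, with ADIPOQ at 0 (sums of 0.0223 to 0.279 FPKM and 0.399 to 0.879 FPKM). The part of these differences in the results was not tested, and in bulk RNA fewer cells of a type and less RNA per cell cannot be told apart. For each pair of libraries, the ratio between their values was taken in each low gene, and the most frequent ratio was counted. It held in 20.13% to 25.09% of low genes for pairs among control replicate 1 and knockdown replicates 1 and 3. For control replicate 2 with knockdown replicate 2 it held in 16.98%, against at most 3.96% in other pairs. The labels do not describe these 2 sets of libraries, called set A (the first 3 libraries) and set B (the other 2) here. Differences within each set are given beside the pooled ones.

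SCD was the most abundant of the 10 genes and FADS1 and FADS2 were the least abundant. Mean levels over the 5 libraries were 255.4 FPKM for SCD, 78.6 FPKM for ELOVL1, 71.2 FPKM for FASN and 32.7 FPKM for FADS3. ELOVL5, ACACA and ELOVL6 followed closely together at 16.3, 16.2 and 16.2 FPKM, then MFSD2A at 5.96, FADS1 at 3.07 and FADS2 at 2.36 FPKM. SCD lay above every other gene in every library, by more than the spread of either. ELOVL1 and FASN overlapped over the libraries, as did FASN and FADS3, and ELOVL5, ACACA and ELOVL6 could not be ordered. MFSD2A and FADS1 overlapped across groups, although MFSD2A was the higher of the pair in each of the 5 libraries.

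**Figure D1:**
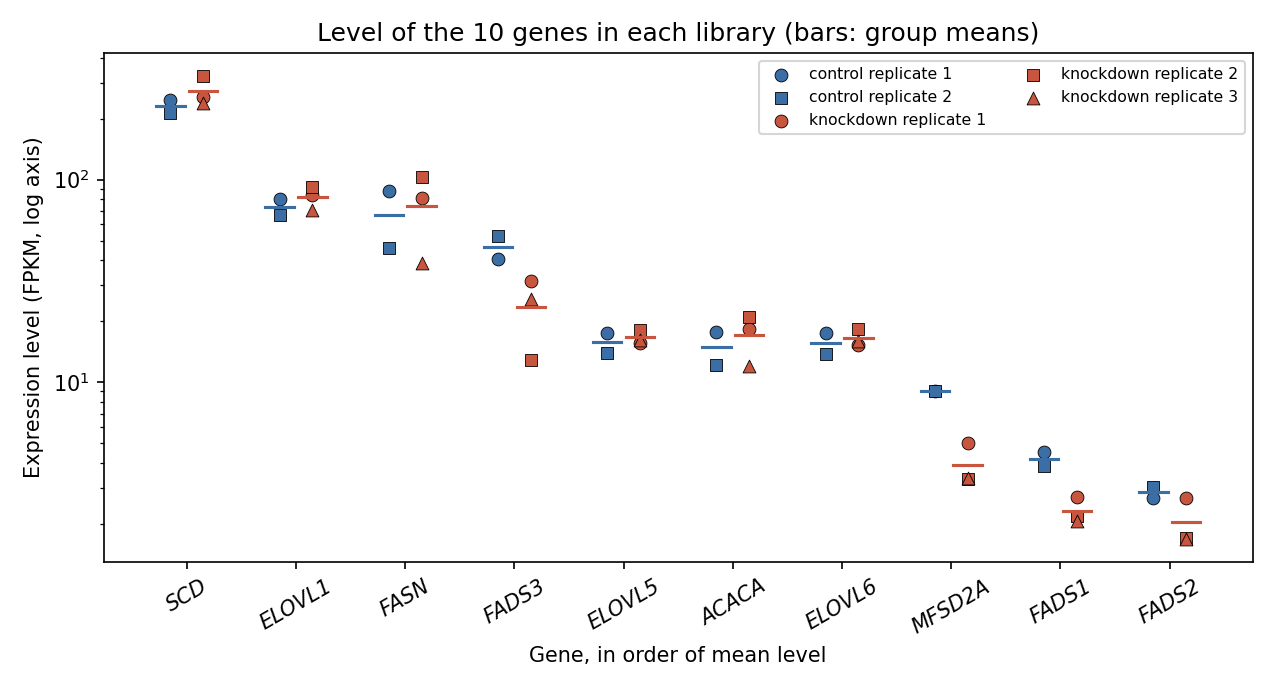
Level of each of the 10 genes in each library (vertical axis, FPKM on a log axis), with genes ordered by mean level on the horizontal axis, controls in blue and knockdown in red, 1 point per library and bars for group means. The knockdown points of FADS3, MFSD2A and FADS1 all lie below both control points, while those of the other 7 genes overlap with the controls.

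Within the front-end desaturases, each knockdown library held less FADS1 and FADS3 transcript than either control, and 2 of the 3 held less FADS2. FADS1, which carries out the last desaturation on the way to arachidonic acid, was at 4.50 and 3.87 FPKM in controls and at 2.70, 2.19 and 2.08 FPKM in knockdown. The groups did not overlap, with knockdown replicate 1 the nearest to the controls. It averaged 4.19 ± 0.44 FPKM in controls (SD, n = 2) and 2.32 ± 0.33 FPKM in knockdown (SD, n = 3), which is a ratio of 0.554 and a log2 difference of -0.74 on the log2(FPKM + 0.5) scale, which is used for every difference below. The difference was nearly the same within both library sets, -0.80 in set A and -0.70 in set B.

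FADS2, which carries out the entry desaturation of the same route, was at 2.68 and 3.04 FPKM in controls and at 2.69, 1.71 and 1.69 FPKM in knockdown. Knockdown replicate 1 lay within the control range, and the other 2 knockdown libraries lay below it. On the log2 scale FADS2 differed by -0.43 (SE 0.21, with -0.93 to 0.07 as the 95% confidence interval), which missed the threshold of 0.05 (limma with Benjamini-Hochberg adjustment over all tested genes, adjusted p = 0.478). FADS2 averaged 2.86 ± 0.25 FPKM in controls (SD, n = 2) and 2.03 ± 0.57 FPKM in knockdown (SD, n = 3). Within sets it was -0.27 and -0.68. FADS1 and FADS2 overlap on chromosome 11, at 61799625 to 61829318 on the minus strand (ENSG00000149485.18) and 61792980 to 61867354 on the plus strand (ENSG00000134824.13) in GENCODE release 29. The RefSeq start of FADS1 lies 599 to 800 bases from those of FADS2, and 490 exon bases are common to both genes, 4.8% of those of FADS1 and 4.4% of those of FADS2. Whether counting used strand is not given in the sources used here, so reads in those 490 bases cannot be told apart. A further 49 exon bases of FADS2 (0.4%) are shared with FEN1 on the same strand. FEN1 averaged 79.7 FPKM, and strand could not separate reads in those bases.

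FADS3, a relative that desaturates the sphingoid base of ceramides, was by far the most abundant of the trio and had the widest spread between libraries. It was at 40.3 and 52.9 FPKM in controls and at 31.6, 12.9 and 25.7 FPKM in knockdown. Knockdown replicate 2, the library of lowest AHNAK, was also the lowest for FADS3. FADS1 and FADS2 were lowest in knockdown replicate 3, but knockdown replicate 2 lay close to it (FADS1 2.19 against 2.08 FPKM, FADS2 1.71 against 1.69 FPKM). Knockdown replicate 2 has a further trait. It is also the only knockdown library of set B, so AHNAK level and library set cannot be told apart there. A relation to AHNAK level was not tested. Control libraries averaged 46.6 ± 8.89 FPKM (SD, n = 2), those of knockdown 23.4 ± 9.55 FPKM (SD, n = 3), and the ratio was 0.502. The log2 difference of -1.06 (SE 0.36, interval -1.92 to -0.20) did not pass over all genes (limma adjusted p = 0.394). Set A gave -0.49 and set B -1.99, and the pooled value was -0.69 without knockdown replicate 2 (adjusted p = 0.82). Over 17 alternatives it ranged from -1.61 to -0.69, with adjusted p up to 0.974, and it passed with limma array weights (-1.61, adjusted p = 0.0364), where knockdown replicate 2 had a weight of 3.98 and knockdown replicate 3 one of 0.257. That fit called 5.26% of all tested genes as lower and 6.45% as higher.

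Ratios between genes within a library do not depend on how libraries were scaled. The FADS1 to FADS2 ratio was 1.68 and 1.27 in controls and 1.00, 1.28 and 1.23 in knockdown, so the groups overlapped. Its log2 value differed by -0.33 between groups, with a range of -0.53 to -0.13 when each library was left out. FADS3 made up 84.9% and 88.4% of the summed FPKM of the trio in controls and 85.4%, 76.8% and 87.2% in knockdown, which overlapped except for knockdown replicate 2. The sum of the trio itself was 47.5 and 59.8 FPKM in controls and 37.0, 16.8 and 29.4 FPKM in knockdown, with no overlap. FADS3 made up most of this sum and FADS1 was chosen for its fall, so the sum is no separate result.

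**Figure D2:**
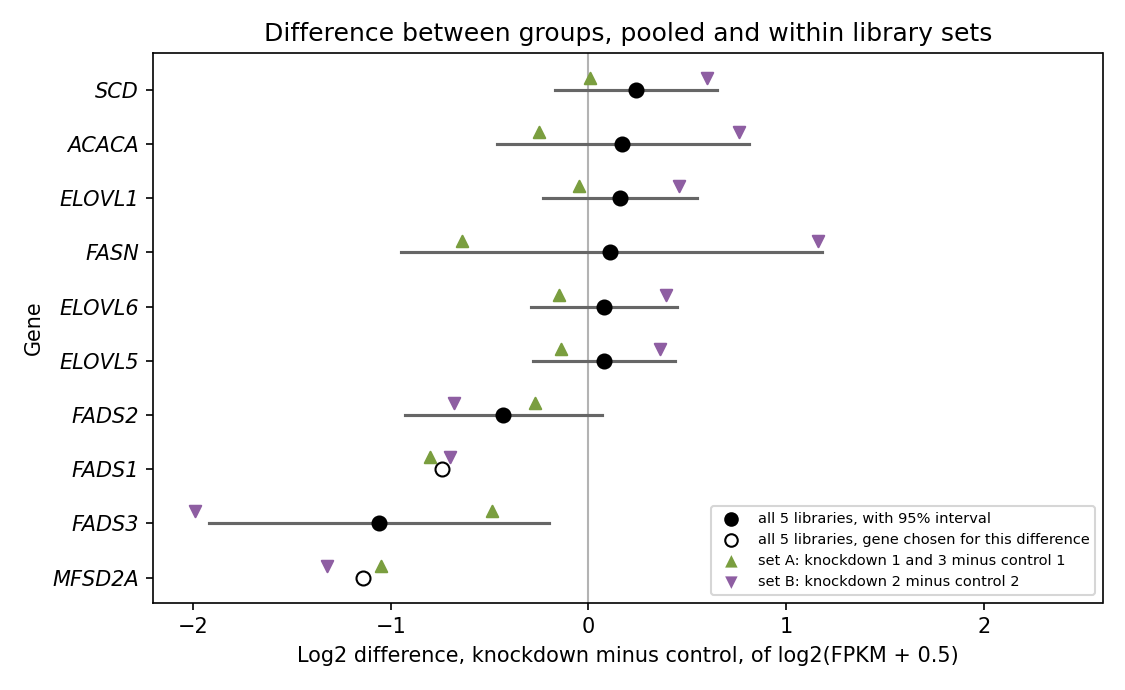
Log2 difference between knockdown and control (horizontal axis) for each gene (vertical axis), with filled circles and 95% intervals for the fit over all 5 libraries, open circles for the 2 genes chosen by this difference, and triangles for the difference within each library set. MFSD2A, FADS3, FADS1 and FADS2 lie below 0 in both sets, while 5 genes lie below 0 in set A and above 0 in set B.

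MFSD2A transcript was lower in all knockdown samples and had the largest pooled difference of the 10 genes, although FADS3 differed by more in set B, with array weights, with the replicate block, and without control replicate 1 or knockdown replicate 1 or 3. This lysophosphatidylcholine transporter (ENSG00000168389.17, chromosome 1, 39955112 to 39969968, plus strand, GRCh38) was at 9.05 and 9.03 FPKM in controls and at 5.02, 3.33 and 3.36 FPKM in knockdown. The controls were almost equal, and the highest knockdown library lay well below them. Control libraries averaged 9.04 ± 0.014 FPKM (SD, n = 2), those of knockdown 3.90 ± 0.96 FPKM (SD, n = 3), giving a ratio of 0.432 and a log2 difference of -1.14. Set A gave -1.05 and set B -1.32, and the pooled value ranged from -1.31 to -1.05 over all 17 alternatives. MFSD2B, a relative that exports sphingosine phosphate, was near 0 (0.039 to 0.112 FPKM) and too low for the test.

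The genes of synthesis and of monounsaturated acids differed between groups by less than their spread between libraries. ACACA was at 17.8 and 12.2 FPKM in controls and at 18.3, 21.0 and 12.0 FPKM in knockdown, and the highest and lowest library were both knockdown. Its log2 difference was 0.17 (SE 0.27, interval -0.46 to 0.81, limma adjusted p = 0.809). FASN was at 87.9 and 45.7 FPKM in controls and at 81.4, 102.6 and 38.7 FPKM in knockdown, so that control replicate 2 and knockdown replicate 3 stood low together. The log2 difference of FASN was 0.11, with a wide interval of -0.95 to 1.18 (adjusted p = 0.938). Set A gave -0.64 and set B 1.16, and without control replicate 2 it was -0.35. FASN has the highest GC content of the 10 in its longest transcript, 65.3%. Over all tested genes with a GC value, deviations of knockdown replicate 3 had a Spearman's rho with GC content of -0.549 and those of knockdown replicate 1 of 0.605, across genes that are not independent. For control replicate 2, where FASN was also low, rho was 0.12, and for knockdown replicate 2, where FASN was highest, it was 0.002. After correction for GC content and length the FASN difference was 0.35 (adjusted p = 0.611). The part of GC content in the spread of FASN was not tested.

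FASN and ACACA ranked the libraries alike except for control replicate 1 and knockdown replicate 1, which changed places, and their ratio stayed between 3.22 and 4.94. This ratio overlapped between groups, at 4.94 and 3.76 in controls and 4.44, 4.89 and 3.22 in knockdown. SCD was at 245.7 and 213.5 FPKM in controls and at 256.4, 323.8 and 237.9 FPKM in knockdown. Knockdown replicate 2 was the highest library, knockdown replicate 1 also lay above both controls, and knockdown replicate 3 lay between them. The log2 difference of SCD was 0.24 (SE 0.17, interval -0.17 to 0.65, adjusted p = 0.608). SCD alone made up 47.0% and 49.1% of the summed FPKM of the 10 genes in controls and 50.0%, 54.3% and 56.1% in knockdown. These shares did not overlap, although 49.1% and 50.0% lay close. That sum includes FADS1 and MFSD2A, chosen for their fall, and FADS3, also lower in every knockdown library. The share of SCD is therefore no separate result. The FADS2 to SCD ratio was 0.0109 and 0.0142 in controls and 0.0105, 0.00528 and 0.00709 in knockdown, lower in every knockdown library (log2 difference -0.77, and -1.03 to -0.53 when each library was left out). Control replicate 1 (0.0109) and knockdown replicate 1 (0.0105) were nearly tied, and each of these genes alone overlapped between groups.

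The elongases were the steadiest of the genes. ELOVL1, which extends very long saturated chains for ceramides, was at 79.9 and 66.8 FPKM in controls and at 83.7, 91.9 and 70.8 FPKM in knockdown (log2 difference 0.16, interval -0.23 to 0.55, limma adjusted p = 0.71). ELOVL5, which elongates polyunsaturated acids between the FADS2 and FADS1 steps, was at 17.5 and 14.0 FPKM in controls and at 15.6, 18.2 and 16.1 FPKM in knockdown. Its log2 difference was 0.08 (interval -0.28 to 0.44, adjusted p = 0.848). ELOVL6, which elongates palmitate to stearate, was at 17.4 and 13.8 FPKM in controls and at 15.3, 18.2 and 16.0 FPKM in knockdown, with a log2 difference of 0.08 (interval -0.29 to 0.45, adjusted p = 0.848). For all 3 elongases the groups overlapped, control replicate 2 was the lowest library and knockdown replicate 2 the highest. ELOVL1 kept between 68.8% and 73.0% of their summed FPKM in every library. Of the other elongases, ELOVL4 and ELOVL7 were at 1.37 to 2.25 FPKM, and ELOVL2 and ELOVL3 were at 0.06 FPKM or lower.

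**Figure D3:**
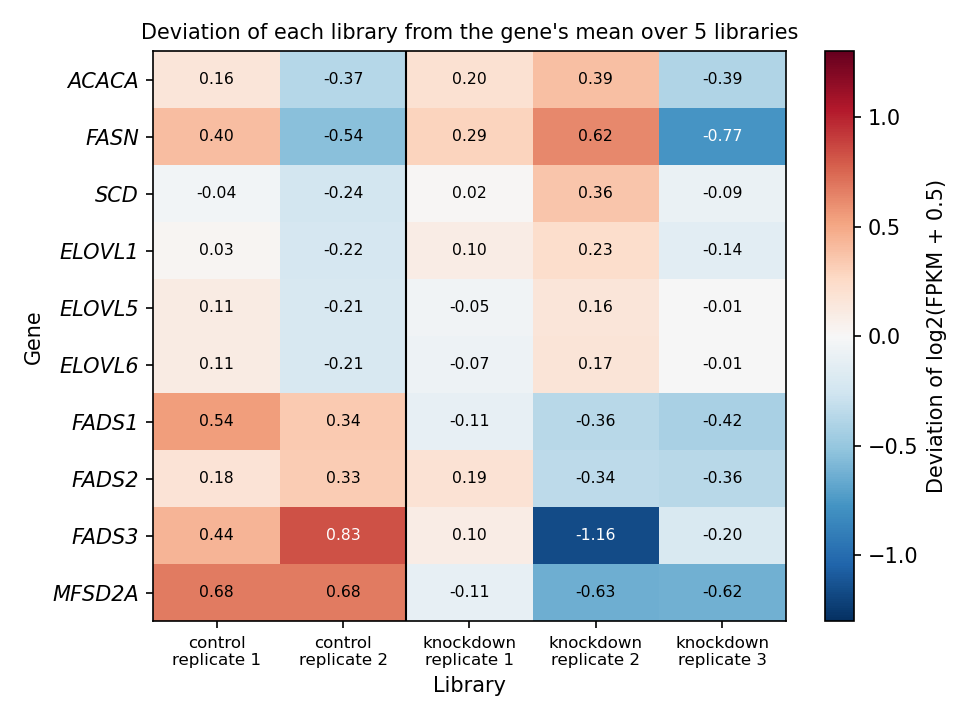
Deviation of each library (columns) from each gene's mean over the 5 libraries (rows), in log2(FPKM + 0.5), with red for higher and blue for lower and the value in each cell. The upper 6 genes are all below 0 in control replicate 2 and highest in knockdown replicate 2, whereas FADS1, FADS3 and MFSD2A are above 0 in both controls.

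Of the 8 genes not chosen by their difference, 2 were lower and 6 higher in knockdown, and 0 passed over all genes in limma (adjusted p from 0.394 to 0.938). With an unadjusted p under 0.05 there was 1, FADS3. Over all 12196 tested genes 0.0% passed, 5.48% had an unadjusted p under 0.05 and were lower, and 6.22% were higher by that rule. Of the 8, 1 was lower in every knockdown library and 0 were higher in every one, where these shares were 15.8% and 16.2% over all tested genes and 48.7% of genes had a log2 difference under 0. That 1 of 8 is near the background share. Of all 10 genes, FADS1, FADS3 and MFSD2A had a log2 difference of -0.5 or lower, which 4.25% of tested genes had, and FADS1 and MFSD2A were chosen for it. Without control replicate 1 FADS2 joined the genes lower in every knockdown library, and SCD, ELOVL1, ELOVL5 and ELOVL6 were then higher in every one (24.1% and 27.6% of all tested genes lay outside the control in these directions). Without knockdown replicate 3 ACACA, SCD and ELOVL1 were higher in both remaining libraries (24.1% of all tested genes).

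By library, 5 of the 10 genes (ACACA, FASN, ELOVL1, ELOVL5 and ELOVL6) were lower in knockdown within set A and higher within set B. The median difference of the 10 genes was 0.08 (set A -0.26, set B 0.37), while the median over all tested genes was 0.01. FADS1, FADS2, FADS3 and MFSD2A were lower in both sets, which for FADS1, FADS3 and MFSD2A is fixed by the absence of overlap.

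The partners of synthesis and elongation were split in direction. Of 23 listed genes 18 were tested, 8 higher and 10 lower with a median of -0.01, and 0 passed over all genes. Higher in every knockdown library were 4, and lower in every one was 1, against 16.2% and 15.8% of all tested genes. ME1, the cytosolic malic enzyme that supplies NADPH, was at 3.59 and 4.62 FPKM in controls and at 6.54, 7.40 and 9.38 FPKM in knockdown, with no overlap (log2 difference 0.84, limma adjusted p = 0.372). CYB5A, the cytochrome that feeds electrons to desaturases, was at 60.3 and 61.2 FPKM against 50.6, 47.4 and 51.2 FPKM (log2 difference -0.29, adjusted p = 0.426). ACLY, which makes cytosolic acetyl-CoA from citrate, differed by -0.28 (set A -0.57, set B 0.10), ACSS2, which makes it from acetate, by -0.02, and SCD5, the other stearoyl-CoA desaturase, by 0.15. ACACB, the mitochondrial carboxylase, was too low for the test (0.444 to 0.733 FPKM).

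Among regulators of lipid synthesis, the gene of smallest p was INSIG1, whose protein holds the SREBP precursors in the endoplasmic reticulum. INSIG1 was at 12.99 and 11.94 FPKM in controls and at 18.95, 20.4 and 18.7 FPKM in knockdown. Every knockdown library lay above both controls and they lay close together, with a log2 difference of 0.61 (SE 0.12, set A 0.52, set B 0.75) that did not pass over all genes (limma adjusted p = 0.372). PPARG, a nuclear receptor activated by fatty acids, was at 5.76 and 5.06 FPKM against 7.82, 10.74 and 8.92 FPKM (log2 difference 0.70, adjusted p = 0.377). SREBF1 and SREBF2, which encode the SREBP transcription factors of fatty acid and cholesterol genes, overlapped between groups, with log2 differences of -0.15 (interval -0.62 to 0.32) and 0.14 (interval -0.43 to 0.72). Of 15 tested regulators 10 were higher and 5 lower (median 0.11), and 0 passed. In every knockdown library 3 were higher and 1 was lower, beside 16.2% and 15.8% of all tested genes.

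The sterol-regulated genes, listed as targets of SREBP, had 9 of 10 members higher and 1 lower, with a median of 0.13. None of the 10 was higher or lower than both controls in all 3 knockdown libraries, as 16.2% and 15.8% of all tested genes were. Of the 10, 0 passed over all genes in limma or had an unadjusted p under 0.05. By library set the median was -0.18 (A) and 0.36 (B), and -0.08 without control replicate 2. HMGCS1, an early enzyme of cholesterol synthesis, differed by 0.17 and IDI1, a later one, by 0.24.

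**Figure D4:**
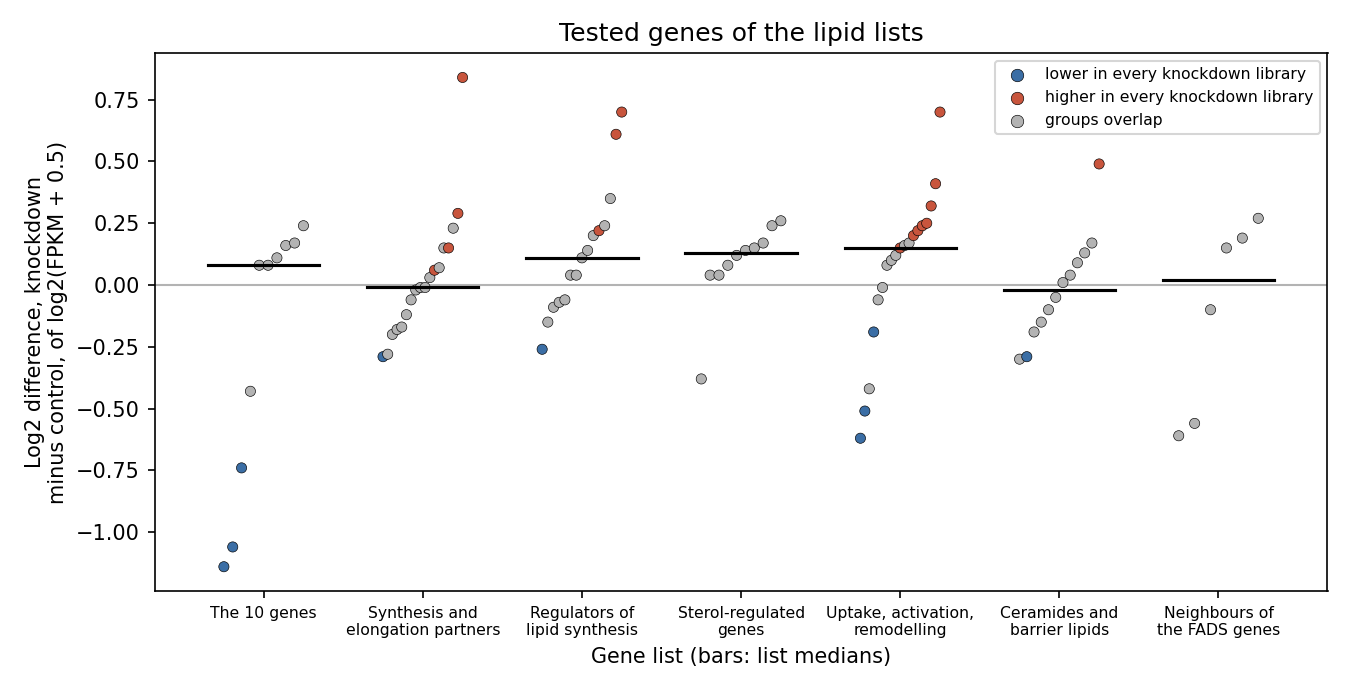
Log2 difference between knockdown and control (vertical axis) of each tested gene in the 10 genes and in 6 lists (horizontal axis), with bars for the list medians and colour for genes that lie outside both controls in every knockdown library. List medians run from -0.02 to 0.15, and MFSD2A, FADS3 and FADS1 are the lowest points of the plot.

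Genes of fatty acid uptake, activation and phospholipid remodelling were higher in 13 and lower in 6 of 19 tested (median 0.15), where 48.7% of all tested genes were lower. Of these, 8 were higher in every knockdown library and 3 lower in every one, beside 16.2% and 15.8% of all tested genes, and 0 passed over all genes. LPCAT4, a lysophospholipid acyltransferase, was at 86.1 and 84.4 FPKM in controls and at 62.6, 59.7 and 56.9 FPKM in knockdown. Its log2 difference was -0.51 (SE 0.12, limma adjusted p = 0.377), nearly equal in set A (-0.53) and set B (-0.50). ACOT7, an acyl-CoA thioesterase, was at 38.9 and 36.8 FPKM against 31.6, 22.5 and 20.4 FPKM (log2 difference -0.62, adjusted p = 0.389). LPCAT3, which places polyunsaturated chains in phospholipids, differed by 0.22 and FABP5, the epidermal fatty acid binding protein, by 0.15, and both were higher in every knockdown library.

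In the list of ceramide and barrier lipid genes, which FADS3 and ELOVL1 serve, 12 of 19 were tested, 6 higher and 6 lower (median -0.02), with 0 passing. SPTLC3, a subunit of the serine palmitoyltransferase that starts sphingolipid synthesis, was at 3.81 and 4.32 FPKM in controls and at 5.11, 5.98 and 6.79 FPKM in knockdown (log2 difference 0.49, limma adjusted p = 0.389). DEGS1, the dihydroceramide desaturase, was at 23.6 and 21.6 FPKM against 16.0, 17.0 and 22.1 FPKM, which overlapped (log2 difference -0.30, adjusted p = 0.524). CERS2, the ceramide synthase of very long chains, differed by 0.09. CYP4F22 and PNPLA1, which build the acylceramides of the barrier, were listed at 0 in all 5 libraries.

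The FADS genes lie on the same chromosome as AHNAK (62433542 to 62556235, minus strand), with 541491 bases between the end of FADS3 and the start of AHNAK. The genes listed around FADS1 to FADS3 differed in direction. Of 6 tested neighbours 3 were higher and 3 lower (median 0.02), and 0 passed over all genes or had an unadjusted p under 0.05. None was higher or lower than both controls in all knockdown libraries, as 16.2% and 15.8% of all tested genes were. TMEM258, beside FADS2, and FEN1, which overlaps the start of the FADS2 span, differed by 0.27 (limma adjusted p = 0.591) and -0.10 (0.777). RAB3IL1, next to FADS3, was at 4.70 and 3.15 FPKM in controls and at 3.17, 2.82 and 1.42 FPKM in knockdown (log2 difference -0.61, adjusted p = 0.487). BEST1 differed by -0.56 with -1.56 in set B and 0.11 in set A. MYRF (0.383 to 0.636 FPKM) was too low for the test. So was DAGLA, named here after its values were seen, whose mean of 0.979 FPKM lay just under the filter. DAGLA, a diacylglycerol lipase, was at 1.43 and 1.22 FPKM in controls against 0.979, 0.754 and 0.501 FPKM in knockdown, below both controls in every library (log2 difference -0.57).

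**Figure D5:**
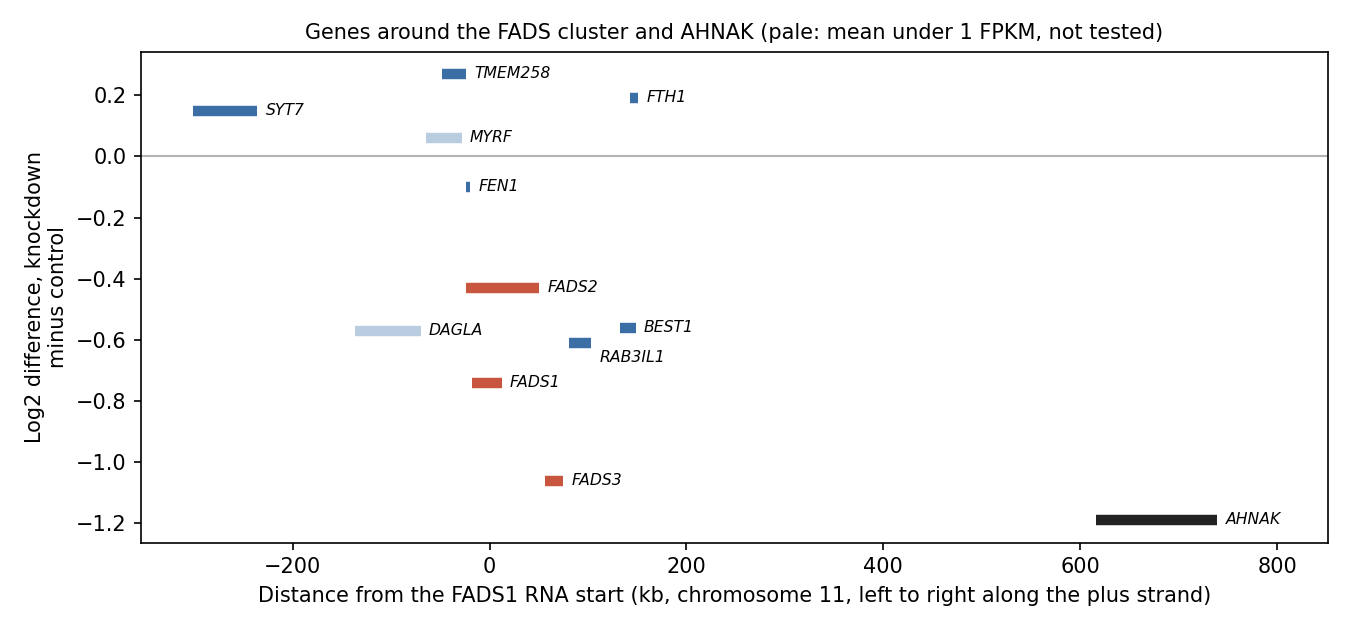
Genes around the FADS cluster and AHNAK, drawn as bars from end to end at their distance from the FADS1 RNA start (horizontal axis, kb), with the log2 difference between knockdown and control on the vertical axis. FADS1, FADS2 and FADS3 lie below 0, as do RAB3IL1, BEST1 and DAGLA (pale, not tested), whereas TMEM258 and FTH1 lie above 0.

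The genes whose profile over the 5 libraries lay nearest to that of FADS1 were ANO1, a calcium-activated chloride channel, ANXA8L1, an annexin, and UNC13D, a factor of regulated exocytosis. Likeness was measured as the root mean square distance between log2(FPKM + 0.5) profiles centred on their own means, over 8677 genes averaging 5 FPKM or more. The distances were 0.038, 0.050 and 0.058. ANO1 was at 95.3 and 84.7 FPKM in controls and at 60.2, 49.8 and 45.9 FPKM in knockdown, the same order of libraries as in FADS1. Nearest to MFSD2A, among 8676 genes, were DUSP7, a phosphatase of ERK, PHLDA2 and FSTL3, a secreted inhibitor of activin, at 0.137, 0.142 and 0.149. DUSP7 was at 40.8 and 41.3 FPKM in controls and at 27.0, 19.2 and 20.9 FPKM in knockdown. These genes were picked for likeness to genes chosen for their fall. Their lower values in knockdown and their like order of libraries follow from that choice. Among the 10 genes FADS1 was nearest to FADS2 (0.208) and then MFSD2A (0.225), and farthest from FASN (0.638). FADS1 and MFSD2A were both chosen for their fall, which brings their profiles together.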

How the data were processed

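Total RNA of 5 HaCaT libraries was analysed from 1 table of FPKM values that the authors deposited, with 1 row per symbol and 1 column per library; 0 further sample columns were present. HISAT2 2.0.1, StringTie 2.0.6 and the builds GRCh38 and mm9 are named, without a role, per the submitters' processing notes, and the annotation is not given in the sources used here. FPKM carry no read totals, so depth is unknown and no count test was run. Groups and replicate numbers came from the labels.

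Values were analysed as log2(FPKM + 0.5) for genes averaging 1 FPKM or more, a scale that understates changes of low genes, with limma 3.58.1 in R 4.3.3 (lmFit, eBayes with trend, no covariate), two-sided and Benjamini-Hochberg adjusted over all tested genes at 0.05; the step was tested on simulated data. Alternatives varied the pseudocount, filter, scaling and variance model, used array weights, a replicate block or a term for library set, left out each library, and added, after seeing the data, a loess correction (span 0.3) for GC content and length. The genes and lists were chosen with earlier results of these data known. Named were the 10 genes, AHNAK, a fixed set of 15, the 2 tested genes of smallest p per list, and the 3 nearest profiles to FADS1 and MFSD2A. Values of 2 genes that this rule names are not reported here. Coordinates, exons and GC content came from GENCODE release 29.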

Additional observations from a re-analysis of the deposited data

How the results depend on the processing

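With 2 controls and 3 knockdown libraries, precision is limited by their number and by unknown depth. Over 17 alternatives, FADS3 with array weights was the 1 fit of the 8 genes not chosen by their difference that crossed the threshold. FADS1, FADS3, MFSD2A and FADS2 stayed below 0 in every fit run. For FADS1, FADS3 and MFSD2A the absence of overlap fixes this sign when a library is left out. FADS1 and MFSD2A were also chosen for their fall. ACACA, FASN, ELOVL5 and ELOVL6 were below 0 without control replicate 2, at -0.09, -0.35, -0.08 and -0.08. FASN was below 0 in 3 of its 17 alternatives, among them at -0.01 without knockdown replicate 1. For the values that follow, the cause was not tested.

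Genes called over all tested genes numbered 1428 with array weights and 1 each with a pseudocount of 1, without a trend and with robust eBayes, and 0 to 9 when each library was left out, against 0 as reported. Members under the adjusted threshold numbered 3 with array weights against 0, but 2 of these, FADS1 and MFSD2A, were chosen for their difference in these libraries, so their p is no test. Members without overlap between groups numbered 5 after correction for GC content and length (4 lower and 1 higher, beside 20.7% and 19.5% of all tested genes) and 3 to 8 when each library was left out, against 3. The 8, without control replicate 1, were 4 lower and 4 higher, beside 24.1% and 27.6% of all tested genes. The median of the FADS neighbours was -0.03 with equal FPKM sums and with quantile normalization and 0.17 at a mean of at least 5 FPKM, and that of the ceramide list -0.1 without a filter. Leaving out each library moved the medians of the synthesis partners from -0.05 to 0.05 and of the sterol-regulated genes from -0.08 to 0.25.

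With the replicate number as a block, 0 genes and 0 of the 10 members were called, the FADS1 difference was -0.67, and no call changed. Residuals of same-numbered libraries had correlations across genes of -0.064 (number 1) and -0.578 (number 2), and nothing in the labels ties same-numbered libraries together.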

Other observations

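ELOVL5 and ELOVL6, which lie on chromosomes 6 and 4, had almost the same FPKM in every library. The ELOVL6 to ELOVL5 ratio was 0.994 and 0.989 in controls and 0.980, 1.003 and 0.996 in knockdown, and the largest gap on the log2 scale was 0.029. ELOVL6 was the 1 tested gene within 0.05 of ELOVL5 on the log2 scale in all 5 libraries. Of 3176 genes with a mean of 10 to 25 FPKM, 9.54% had at least 1 other gene within that distance in all 5 libraries.

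MIR1908, which lies within FADS1 exons, was listed at 0 in all 5 libraries. MIR33B, hosted by SREBF1, was at 2.38 and 2.48 FPKM in controls and at 3.56, 3.43 and 2.61 FPKM in knockdown, with no overlap (log2 difference 0.32, limma adjusted p = 0.492), while SREBF1 overlapped between groups. Whether these libraries hold mature microRNAs is not given in the sources used here.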
